A study of Mus musculus with 4 samples.

Results

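Insulin-like growth factors are small secreted ligands that act through a receptor tyrosine kinase, and in tissue fluid most of the ligand is held by secreted binding proteins. These proteins can withhold the ligand from its receptor, deliver it locally or act on their own at the cell surface and in the matrix, and proteases release the ligand again. In the mammary gland the growth factor axis acts downstream of growth hormone in duct growth, with stroma as a known source of ligand. The 8 genes described here were the 6 binding protein genes Igfbp2, Igfbp3, Igfbp4, Igfbp5, Igfbp6 and Igfbp7, the ligand gene Igf1 and the receptor gene Igf1r, of 27998 genes in the matrix. They were picked by name from the gene list, with their levels by cell class and library in these data already known. Levels by class are therefore given as descriptions without a test.

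The study profiled FACS-sorted mammary gland cells of C57BL/B6 mice as droplet single-cell libraries that count the 3' ends of transcripts. One control and one Zeb1 MSKO library came from animals 8 weeks old, and one of each from animals 9 weeks old, which gives 2 libraries per genotype. Zeb1 encodes a zinc finger repressor that binds E-boxes; the labels do not expand MSKO, name what drives the deletion or say which part of the gene is lost. The sort markers and the number of animals behind a library go unstated in the sources used here. Every p-value below therefore reflects the spread among these libraries, part of which may be technical. The 8-week and 9-week libraries differ in age, and age cannot be told apart from preparation.

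The 4 libraries held 7627 to 9790 barcodes and 80853204 to 122122443 UMIs (unique molecular identifiers, 1 per captured transcript molecule), with a median of 6376 to 10529.5 UMIs per cell. Between 95 and 151 barcodes occurred in both libraries of a pair. Cells were put in classes by summed marker UMIs, and 4.55% to 6.07% per library passed several gates and were left out. Basal cells numbered 1778 (control) and 4966 (Zeb1 MSKO) at 8 weeks and 2102 and 2519 at 9 weeks, while the luminal progenitor and hormone-sensing luminal classes held at least 1158 cells in each library. Fibroblasts numbered 409 and 563 cells at 8 weeks and 25 and 32 at 9 weeks, and endothelial cells 282, 337, 8 and 8, so the title's term epithelium does not cover all cells and stromal values at 9 weeks rest on few cells. Zeb1 itself gave 8, 18, 2 and 5 UMIs in basal cells, in the order 8-week control, 8-week Zeb1 MSKO, 9-week control and 9-week Zeb1 MSKO, and 177, 285, 17 and 14 UMIs in fibroblasts. Fibroblast Zeb1 was 58.1, 69.1, 85.1 and 52.2 CPM in that order. Values of the 4 libraries below keep this order. A 3' tag does not show whether an upstream exon was deleted, so these counts do not check the labels.

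On build GRCm38 (mm10, GENCODE vM21) Igf1 lies at chr10:87858265-87937042 on the plus strand and Igf1r at chr7:67952827-68233668 on the plus strand. Igfbp2 (chr1:72824503-72852474, plus strand) and Igfbp5 (chr1:72857932-72874884, minus strand) are neighbours on opposite strands, 5457 bases apart with 0 protein-coding genes between them. Igfbp3 (chr11:7206086-7213923, minus strand) lies 3539 bases from Igfbp1, and Igfbp4 lies elsewhere on that chromosome at chr11:99041244-99054392 (plus strand). Igfbp6 is at chr15:102144362-102149511 (plus strand) and Igfbp7 at chr5:77349240-77408041 (minus strand). Igf1 overlaps the antisense gene Igf1os, and Igfbp7 overlaps Gm34648 and Polr2b on the opposite strand. The sources used here do not state whether counting used strand, so UMIs of these overlapping pairs may not be fully separable.

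The promoters of Igfbp3, Igfbp5 and Igfbp2 are shown because these genes carry the differences between basal libraries described below and Zeb1 binds E-boxes. Each is the 250 bases before a gene start in RefSeq (GRCm38.p6), 5' to 3' on the gene's strand, with E-boxes (CANNTG) in capitals. Igfbp2 has 2 such windows, and the upstream one is shown; the bases after its start were not matched to a GENCODE vM21 transcript, unlike those of the other window.
Igfbp3, chr11:7213924-7214173, minus strand: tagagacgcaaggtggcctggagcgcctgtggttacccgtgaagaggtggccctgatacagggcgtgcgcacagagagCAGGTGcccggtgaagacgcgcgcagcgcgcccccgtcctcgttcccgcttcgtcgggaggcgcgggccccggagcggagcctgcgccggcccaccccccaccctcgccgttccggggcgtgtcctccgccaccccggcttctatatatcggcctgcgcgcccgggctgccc
Igfbp5, chr1:72874866-72875115, minus strand: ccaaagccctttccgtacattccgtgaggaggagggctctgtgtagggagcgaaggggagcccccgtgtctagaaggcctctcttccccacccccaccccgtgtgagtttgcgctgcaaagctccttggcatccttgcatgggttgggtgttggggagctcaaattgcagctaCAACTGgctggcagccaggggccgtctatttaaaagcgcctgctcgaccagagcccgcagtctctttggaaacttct
Igfbp2, chr1:72824230-72824479, plus strand: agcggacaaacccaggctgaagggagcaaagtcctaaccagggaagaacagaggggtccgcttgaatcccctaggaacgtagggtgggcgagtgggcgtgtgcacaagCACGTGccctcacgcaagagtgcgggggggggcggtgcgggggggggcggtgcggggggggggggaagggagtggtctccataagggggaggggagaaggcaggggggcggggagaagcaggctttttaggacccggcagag

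The 8 genes matched 9 such windows. CACCTG or CAGGTG, the 2 strands of the E-box form that Zeb1 is known to prefer, occurred in 1 of the 9 windows, the CAGGTG that starts 172 bases before the Igfbp3 start. Of 32851 promoter windows of this length, 17.2% held CACCTG or CAGGTG. Any CANNTG, which includes that form and reads the same on both strands, was in 7 of the 9 windows and in 66.2% of all windows. A match describes the letters only and is not a binding site.

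Igf1, the ligand, was a stromal transcript. Its level, as UMIs of the gene in 1e+06 UMIs of the class (CPM), was 137 and 226 in fibroblasts of the 8-week control and Zeb1 MSKO libraries and 120 and 347 at 9 weeks. In endothelial cells it was 124 and 118 CPM at 8 weeks and 133 in the 9-week Zeb1 MSKO library, from 9 UMIs in 3 cells at most. The 9-week control library had 0 UMIs of it in these cells, where 3 UMIs would be 72.6 CPM. The ranges of these classes overlapped, and the epithelial classes did not exceed 1.54 CPM in any library. By mean over 4 libraries the order was fibroblast (208 ± 104 CPM, SD), endothelial (93.6 ± 62.7) and then the 3 epithelial classes, whose ranges overlapped each other.

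Igf1r, the receptor, was found in basal cells, luminal progenitors and stroma, while hormone-sensing luminal cells had little of it. Basal cells had 35.4, 57.8, 56.7 and 51.2 CPM. Luminal progenitors had 29.6, 46.3, 43.4 and 37.8 CPM. These 2 classes overlapped in level. Hormone-sensing luminal cells had 1.81, 3.08, 1.73 and 4.82 CPM, below every library of the class next above. Endothelial cells were highest by mean (75.0 ± 41.3 CPM, SD, n = 4), with 112, 105, 24.2 and 58.9 CPM, the last 2 resting on 1 and 4 UMIs. Endothelial, basal, luminal progenitor and fibroblast ranges overlapped from each class to the next in the order.

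The binding proteins differed in the classes that held them. Igfbp6, which is known to prefer the ligand Igf2, was a fibroblast transcript with 3468, 3211, 5216 and 2993 CPM. The next class, basal, held 21.7, 25.4, 26.4 and 14.8 CPM, a mean 169-fold lower with no overlap. Igfbp4, an inhibitory binding protein cut by the protease Pappa, was high in both stromal classes. Endothelial cells had 1091, 1022, 1016 and 1075 CPM and fibroblasts 825, 717, 1231 and 847 CPM. Basal cells followed at 52.8, 61.6, 73.9 and 118 CPM, and neither luminal class exceeded 8.97 CPM.

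Igfbp7, a low-affinity relative secreted into vessel matrix, was found across stroma and basal epithelium. Endothelial cells had 5026, 3953, 4087 and 1163 CPM, and fibroblasts 2193, 2305, 1582 and 885 CPM. Basal cells had 1185, 875, 702 and 347 CPM. From endothelial through fibroblast to basal cells, each class overlapped the next.

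Igfbp2, a binding protein that carries a cell adhesion motif, was a basal transcript, as was Igfbp3, the main carrier of the ligand in blood. Igfbp2 measured 319 and 110 CPM in basal cells at 8 weeks and 207 and 459 at 9 weeks, against a fibroblast mean of 52.8 ± 37.1 CPM (SD, n = 4), with no overlap. Igfbp3 measured 748, 955, 152 and 168 CPM in basal cells. The 9-week basal values lay within the endothelial range, which ran from 9.79 to 206 CPM. The endothelial mean was 38.7 CPM at 8 weeks and 164 at 9 weeks, where each library held 8 endothelial cells. Igfbp5, a binding protein with high affinity for matrix, was shared by basal cells and luminal progenitors. Basal cells had 883 and 1433 CPM at 8 weeks and 855 and 1710 at 9 weeks, and luminal progenitors 701, 785, 1656 and 1457 CPM. Hormone-sensing luminal cells had 11.7, 49.6, 21.1 and 29.5 CPM of Igfbp5, below the other epithelial classes in each library, and fibroblasts had 860, 441, 581 and 612 CPM.

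**Figure D1:**
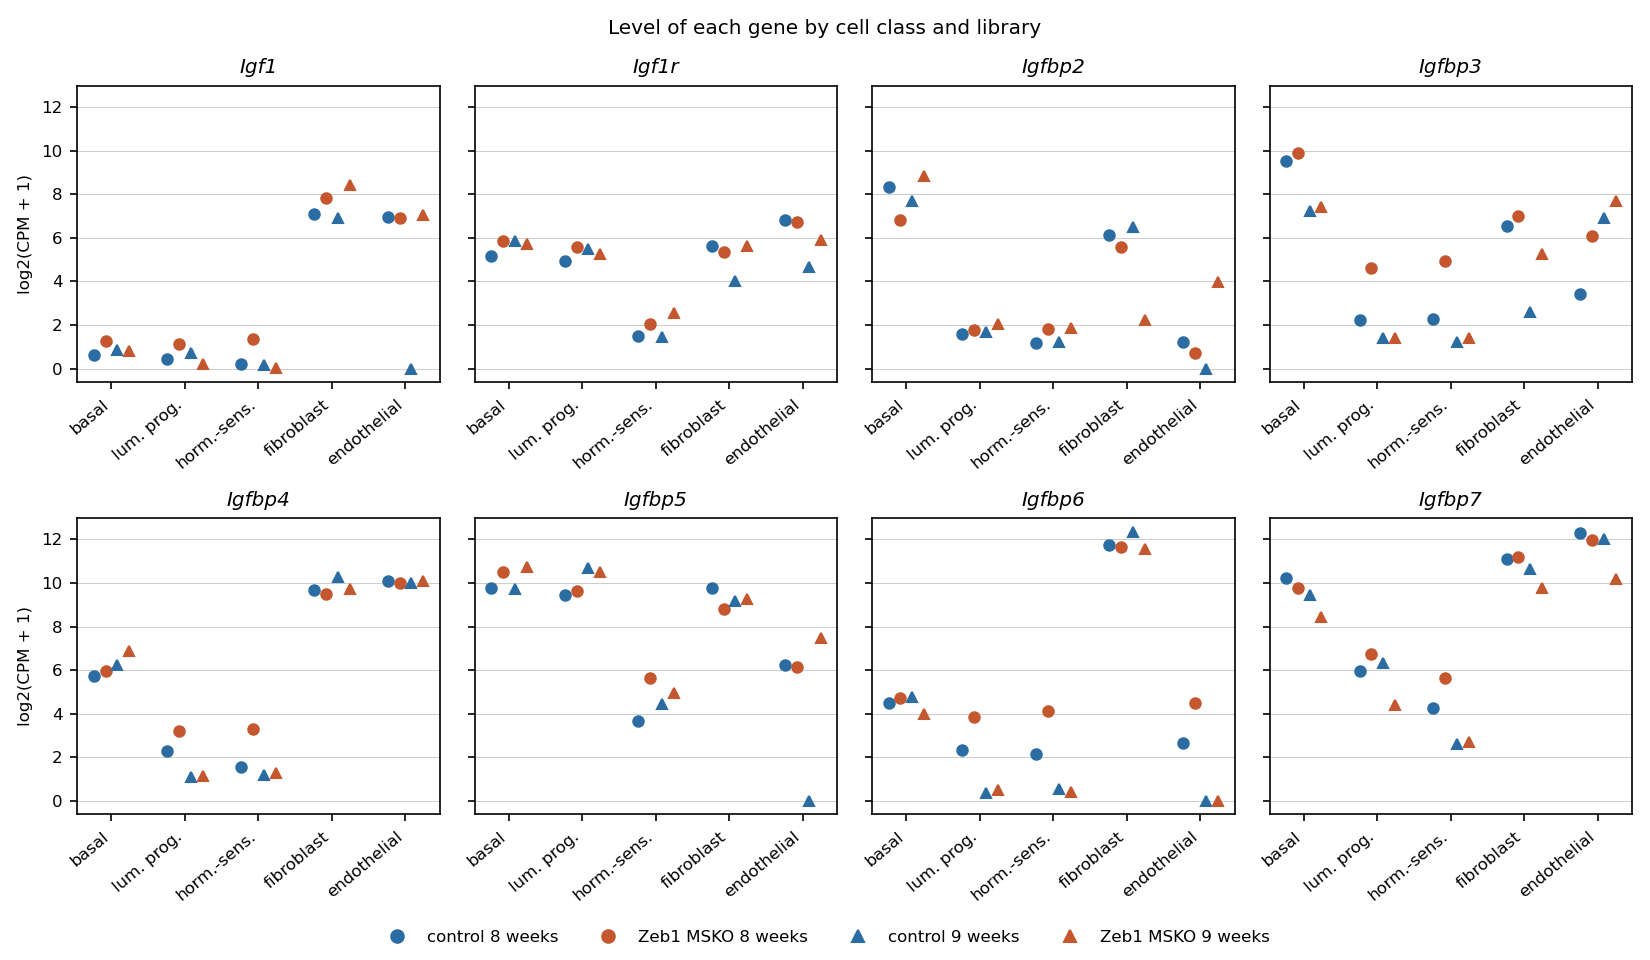
Level of each gene as log2(CPM + 1) on the y axis in 5 cell classes on the x axis, 1 point per library (blue control, orange Zeb1 MSKO, circles 8 weeks, triangles 9 weeks). Igf1, Igfbp4 and Igfbp6 sit highest in stroma, Igfbp2 and Igfbp3 are high in basal cells, Igfbp5 in basal cells, luminal progenitors and fibroblasts, and endothelial points at 9 weeks rest on 8 cells per library.

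Within classes, binding protein levels differed between cells set apart by markers that were not members. Luminal progenitors with a UMI of Lalba, a milk protein gene, had 1318 and 1319 CPM of Igfbp5 at 8 weeks and 2133 and 2205 at 9 weeks. Those without had 664, 757, 1499 and 1308 CPM, lower in each of the 4 libraries. Lalba was detected in 232, 69, 568 and 470 of these cells. Fibroblasts with a UMI of Pi16 or Dpp4, genes of adventitial fibroblasts, had 4412, 4074, 5456 and 4059 CPM of Igfbp6, against 2106, 1679, 4827 and 1882 CPM without. Igfbp5 followed the same order, at 1295, 520, 850 and 870 CPM with these genes and 233, 303, 144 and 343 CPM without. Igfbp7 ran the other way, at 1265, 1844, 1222 and 746 CPM with them and 3531, 3123, 2164 and 1029 CPM without. At 9 weeks these fibroblast groups held 10 to 17 cells per library, so their values there are imprecise. In hormone-sensing luminal cells with a UMI of Pgr, the progesterone receptor gene, Igfbp5 was 12.2, 52.0, 22.0 and 31.7 CPM, against 9.40, 33.2, 16.8 and 23.7 CPM without. Igfbp3 and Igfbp7 were lower with Pgr in the 8-week Zeb1 MSKO library (28.5 against 35.8 and 48.3 against 56.9 CPM) and higher in the others. Basal transcripts were also detected in hormone-sensing luminal cells, as given below, and their part in these values was not tested. The cells with Pgr were deeper in each library, for example with a median of 14402.5 against 12490.5 UMIs in the 8-week control library.

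Igfbp2 was concentrated in few basal cells. The tenth of basal cells with most Igfbp2 UMIs held 67.0% and 81.1% of them at 8 weeks (control, Zeb1 MSKO) and 70.6% and 56.2% at 9 weeks, with up to 134 UMIs in a cell. The matching shares were 30.7%, 30.5%, 34.3% and 28.3% for Igfbp5, and 24.2% to 27.8% for Igfbp7. Such shares also depend on level, and Igfbp5 was above Igfbp2 in basal cells of every library. Igfbp7 was below Igfbp2 only in the 9-week Zeb1 MSKO library, at 347 against 459 CPM. Basal cells with at least 10 Igfbp2 UMIs per 10000 UMIs, a limit chosen after the values were seen, made up 7.09% (126 cells) and 2.05% (102 cells) at 8 weeks and 3.24% (68 cells) and 11.6% (291 cells) at 9 weeks. They were deeper than other basal cells, with a median of 11728 against 7511 UMIs in the 8-week control library and 10707 against 7646.5 in the 9-week Zeb1 MSKO library.

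The basal markers were unevenly spread between the Igfbp2-high and the other basal cells. Of the 10 basal markers, 4 were higher in all 4 libraries (Acta2, Actg2, Cnn1 and Mylk, which encode smooth muscle proteins) and 2 were lower in all 4 (Krt14 and Krt5). The others varied in direction, such as the smooth muscle myosin gene Myh11 (1.33, 1.72, 0.974 and 1.30 times) and the keratin gene Krt17 (1.03, 0.622, 0.677 and 1.07 times). Actg2 was 2.53, 3.81, 1.83 and 2.07 times the level of the other cells. Krt14 was 0.769, 0.636, 0.528 and 0.722 times that level. Of the other binding proteins, Igfbp4 was higher in the Igfbp2-high cells in each library, at 133 against 43.9, 246 against 57.0, 312 against 62.1 and 272 against 90.8 CPM. Igfbp3 was lower in each library, at 0.641, 0.526, 0.718 and 0.731 times the other cells, and Igfbp5 (0.542 to 0.876 times) and Igfbp7 (0.625 to 0.763 times) were lower in each as well. The ratios carry no test because cells of a library are not replicates, and the cause of these differences was not tested.

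**Figure D2:**
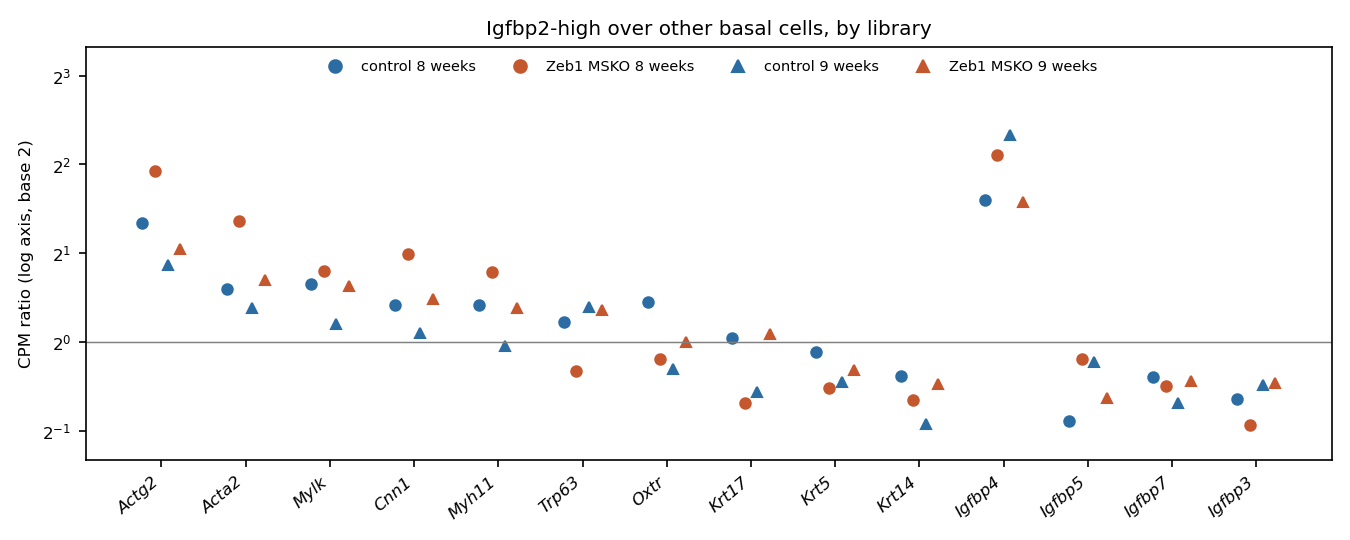
Ratio of CPM in Igfbp2-high basal cells to CPM in the other basal cells (y axis, log base 2) for the 10 basal markers and 4 other binding proteins (x axis), 1 point per library. Igfbp4 and Actg2 lie above 1 in all 4 libraries, whereas Krt14, Krt5, Igfbp3, Igfbp5 and Igfbp7 lie below 1 in all 4.

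The genotype comparison asked whether the genes differed between Zeb1 MSKO and control libraries within a class, in edgeR's quasi-likelihood test with Benjamini-Hochberg adjustment over all genes tested. Of 13013 genes tested in basal cells, 12871 in luminal progenitors, 13198 in hormone-sensing luminal cells and 8951 in fibroblasts, 0 passed an adjusted p of 0.05 in any class (0%), and 79, 174, 469 and 205 had an unadjusted p under 0.05. DESeq2 called 2, 6, 41 and 0 genes in the same order. None of the members tested passed in that fit, while edgeR without the low-count filter called Igfbp3 in luminal progenitors, among 72 of 18442 genes. Igfbp3 levels there overlapped between genotypes. Zeb1 MSKO was at 6.29 times control at 8 weeks and 1.01 times at 9 weeks. Basal markers in luminal progenitors stood at a median of 0.461%, 2.29%, 0.617% and 0.822% of their basal level. The part of basal transcripts in these Igfbp3 values was not tested. In basal cells, 1 of 8 members had control and Zeb1 MSKO levels that did not overlap, beside 15.1% of all genes tested. That gene was Igfbp5, with 883 and 855 CPM in control against 1433 and 1710 CPM in Zeb1 MSKO libraries. The gene was known to differ when it was chosen, and its log2 fold change was 0.81 (SE 0.22, adjusted p = 1.0). With cells thinned to 2000 UMIs, Igfbp5 was detected in 69.0% and 67.0% of control and 83.2% and 87.1% of Zeb1 MSKO basal cells (means 68.0 ± 1.40 and 85.2 ± 2.75, SD, n = 2; exact permutation p = 0.333, two-sided). That is the smallest p that 2 libraries against 2 allow, and 9 of the 24 shares compared over members and epithelial classes reached it, with a Benjamini-Hochberg adjusted p of 0.889 over the 24.

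Igfbp2 in basal cells changed order with age. It was 319 CPM in control and 110 in Zeb1 MSKO at 8 weeks, and 207 in control and 459 in Zeb1 MSKO at 9 weeks, so that the fitted genotype effect was 0.04 on the log2 scale. The share of basal cells with an Igfbp2 UMI after thinning moved the same way, at 22.7%, 10.97%, 18.6% and 32.8%. Acta2, a contractile marker that was higher in Igfbp2-high cells, was at 9343, 5410, 10501 and 11262 CPM in basal cells of these libraries. Actg2, also higher in those cells, was at 644, 162, 534 and 754 CPM. The other markers higher in those cells were lower in Zeb1 MSKO at both ages. They were Cnn1, at 1300, 724, 1525 and 1480 CPM, and Mylk, at 360, 322, 716 and 643 CPM. The part of the contractile cells in the Igfbp2 values was not tested.

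**Figure D3:**
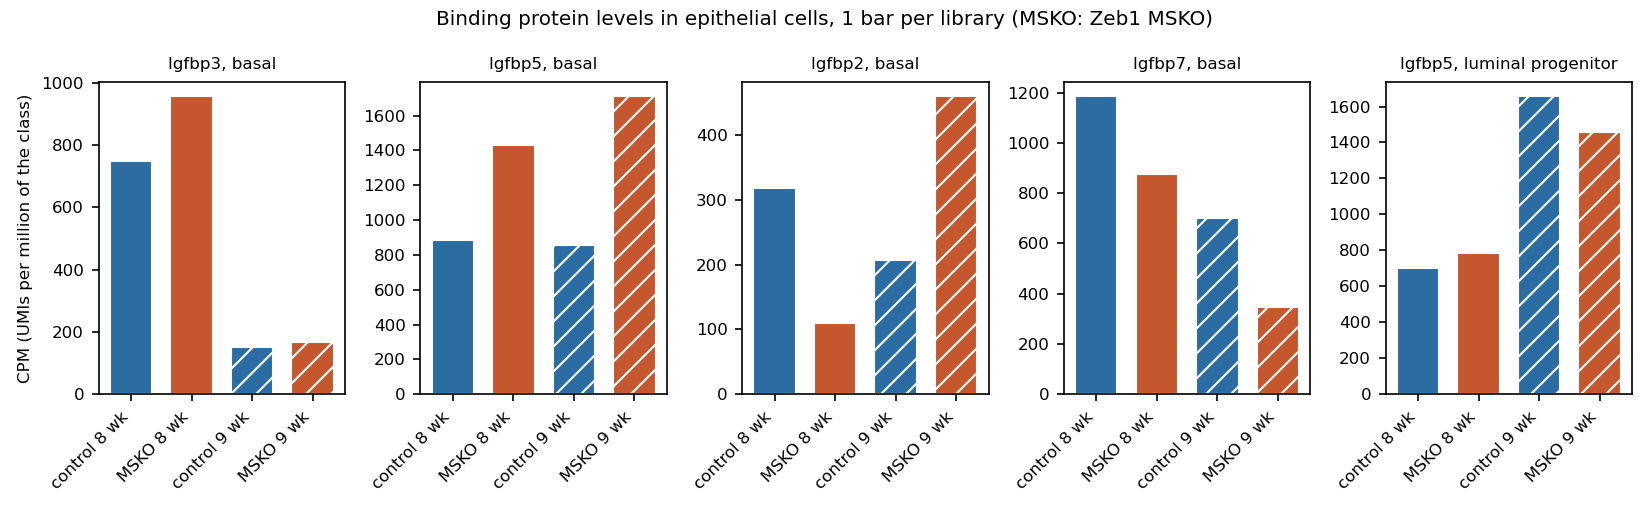
CPM on the y axis, from 0, of Igfbp3, Igfbp5, Igfbp2 and Igfbp7 in basal cells and of Igfbp5 in luminal progenitors, 1 bar per library (blue control, orange Zeb1 MSKO, hatched 9 weeks). Basal Igfbp3 stands at 748 and 955 CPM at 8 weeks and 152 and 168 CPM at 9 weeks, while basal Igfbp5 is higher in both Zeb1 MSKO libraries and basal Igfbp2 is highest in the 9-week Zeb1 MSKO library.

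Luminal progenitors had 1 of 8 members apart between genotypes (Igfbp2, at 2.01 and 2.23 CPM in control and 2.46 and 3.12 in Zeb1 MSKO), beside 21% of all genes. Hormone-sensing luminal cells had 3 of 7 members apart, all higher in Zeb1 MSKO, beside 29.4% of all genes. Igf1r had a log2 fold change of 1.21 (SE 0.40, unadjusted p = 0.0291), Igfbp5 of 1.29 (SE 0.40, unadjusted p = 0.0225) and Igfbp2 of 1.01 (SE 0.39, unadjusted p = 0.0471), all with an adjusted p of 1.0 in edgeR's test. These rested on 54 to 273 UMIs of Igf1r, 416 to 1671 of Igfbp5 and 45 to 148 of Igfbp2 per library. An interaction of genotype with class was called for 0 of 14597 genes between luminal progenitors and basal cells (0%) and for 1 between hormone-sensing luminal and basal cells (0.00685%), and that gene was no member.

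Basal transcripts were also detected in these luminal cells. In hormone-sensing luminal cells the 10 basal markers stood at a median of 0.431%, 2.85%, 0.650% and 0.772% of their basal level. Their ranges were 0.267% to 0.689%, 2.22% to 4.68%, 0.362% to 1.89% and 0.590% to 1.39%, and their summed level was 82.4, 441, 150 and 151 CPM. The 8-week Zeb1 MSKO library was highest on all of these values, and the 9-week libraries had nearly the same sum. Igf1r (1.81, 3.08, 1.73 and 4.82 CPM) and Igfbp2 (1.27, 2.57, 1.37 and 2.61 CPM) were higher in Zeb1 MSKO at both ages. Igfbp2 in hormone-sensing luminal cells was at 0.399%, 2.33%, 0.661% and 0.569% of its basal level, and Igfbp3, which overlapped between genotypes, at 0.517%, 3.08%, 0.883% and 0.988%. Igfbp5 lay at 1.33%, 3.46%, 2.47% and 1.73%, above the basal markers' median in each library. Basal cells were not the only class high in Igfbp5, with a mean of 1221 CPM beside 1150 in luminal progenitors. A percent of the basal level therefore leaves out other sources of Igfbp5. The part of free RNA in these luminal values was not tested further.

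**Figure D4:**
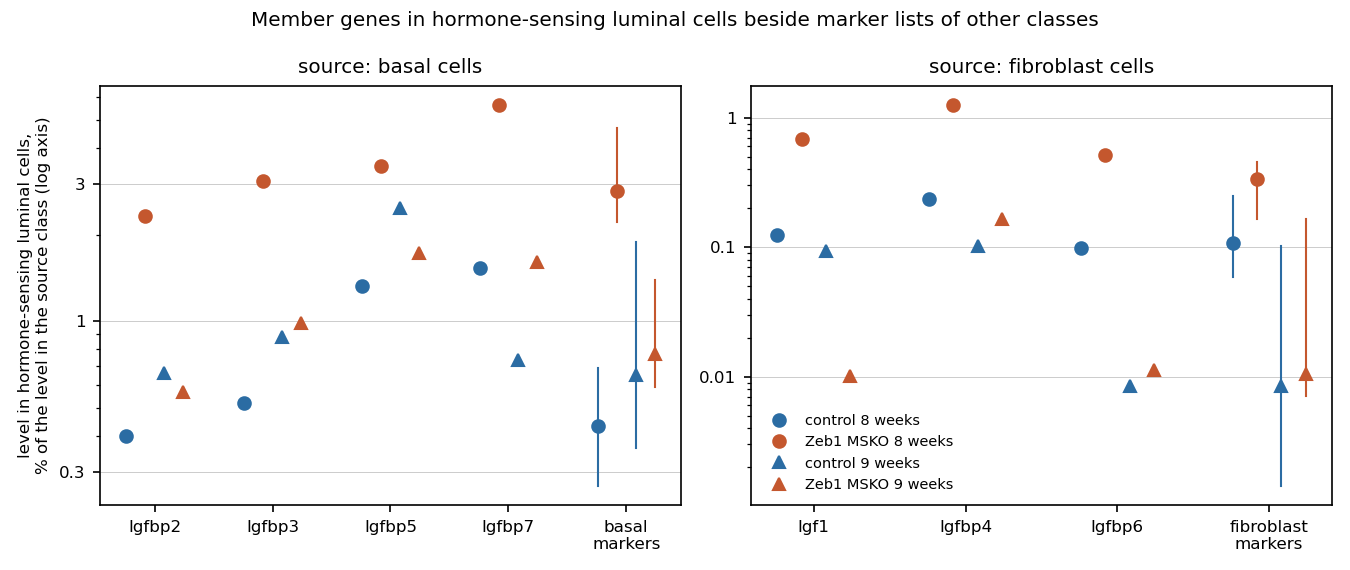
Level of member genes in hormone-sensing luminal cells as a percent of the level in basal cells (left) or fibroblasts (right), log y axes, 1 point per library, with the median (point) and range (line) of the marker list of that source class at the right of each panel. Markers and members are highest in the 8-week Zeb1 MSKO library, where the basal median is 2.85% and Igfbp3 is at 3.08%.

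In fibroblasts, Igf1 was higher in both Zeb1 MSKO libraries (226 and 347 CPM) than in both control libraries (137 and 120 CPM), with a log2 fold change of 1.06 (SE 0.31, unadjusted p = 0.00652, adjusted p = 1.0 in edgeR's test). Igfbp6 was lower in both, at 3211 and 2993 against 3468 and 5216 CPM (log2 -0.52, SE 0.21, unadjusted p = 0.0371, adjusted p = 1.0). With Igfbp2, which rested on 18 and 1 UMIs at 9 weeks, 3 of 8 members were apart between genotypes, beside 30.1% of all genes tested. Leaving out the 8-week Zeb1 MSKO library brought 130 calls in fibroblasts, Igf1 (adjusted p = 0.00602), Igfbp2 and Igfbp7 among them, in a fit where 1 Zeb1 MSKO library of 32 fibroblasts stood for its group.

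The 9-week libraries were then compared with the 8-week libraries, 2 against 2, over the same counts. In basal cells 202 of 13013 genes passed (1.55%), 11 higher and 191 lower at 9 weeks, and 1 of 8 members was among them. Igfbp3 fell from 748 and 955 CPM to 152 and 168 CPM (log2 -2.49, SE 0.20, edgeR adjusted p = 0.00459), and it passed in all 10 alternative fits. The groups were far apart relative to their spread, and the share of basal cells with an Igfbp3 UMI after thinning was 63.3% and 71.8% at 8 weeks against 24.9% and 26.3% at 9 weeks. The Wilson 95% intervals, which cover counting error only, were 61.1% to 65.5%, 70.6% to 73.1%, 23.1% to 26.8% and 24.6% to 28.0%. Unthinned, the shares were 86.6%, 89.6%, 59.5% and 62.8%. In hormone-sensing luminal cells Igfbp3 was between 1.34 and 29.4 CPM, at the percentages of its basal level given above.

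In basal cells 3 of 8 members had levels at 9 weeks that did not overlap those at 8 weeks, beside 54% of all genes tested. Igfbp7 was at 702 and 347 CPM against 1185 and 875 CPM (log2 -1.04, SE 0.35, edgeR adjusted p = 0.174), and Igfbp4 at 73.9 and 118 against 52.8 and 61.6 CPM (log2 0.67, SE 0.25, adjusted p = 0.205). Neither passed the test, though Igfbp7 passed in 4 of 10 alternative fits.

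In luminal progenitors 128 of 12871 genes passed (0.994%), and 2 of 8 members were among them. Igfbp5 rose from 701 and 785 CPM at 8 weeks to 1656 and 1457 CPM at 9 weeks (log2 1.10, SE 0.17, edgeR adjusted p = 0.0487). Its adjusted p lay close to the threshold, and it passed in 4 of 10 alternative fits, failing when any 1 of the 4 libraries was left out, with genotype as a term in the model, and with cells of several gates given to their highest list. Igfbp6 fell from 4.09 and 13.6 CPM to 0.278 and 0.394 CPM (log2 -4.62, SE 0.67, adjusted p = 0.0466, passed in 6 of 10 alternative fits, and failed without either 9-week library, without the 8-week Zeb1 MSKO library and with doubled marker limits). At those levels Igfbp6 stood at 0.118%, 0.424%, 0.00533% and 0.0132% of its fibroblast level, beside a median of 0.0923%, 0.327%, 0.00733% and 0.0123% for the fibroblast markers. Summed, the fibroblast markers were at 27.3, 82.2, 3.89 and 4.91 CPM in luminal progenitors, and their part in the fall of Igfbp6 was not tested.

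The basal markers' summed level in luminal progenitors was 103 and 414 CPM at 8 weeks and 159 and 202 CPM at 9 weeks, and Igfbp5 there was at 79.3%, 54.7%, 193.6% and 85.2% of its basal level. The markers' part in the Igfbp5 values was not tested. The share of luminal progenitors with an Igfbp5 UMI after thinning was 65.1% and 66.6% at 8 weeks and 88.0% and 82.9% at 9 weeks. In all, 4 of 8 members were apart between ages in luminal progenitors, beside 46.8% of all genes tested.

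Hormone-sensing luminal cells had 8 of 13198 genes called between ages (0.0606%) and fibroblasts 8 of 8951 (0.0894%), with 0 members in either by edgeR. Unadjusted p in edgeR's test was under 0.05 for 4 of 7 and 2 of 8 members, beside 1537 of 13198 and 838 of 8951 genes. DESeq2 called Igfbp3, Igfbp6 and Igfbp7 among 440 genes in hormone-sensing luminal cells, and Igfbp3 among 37 genes in fibroblasts. Without the low-count filter, edgeR called Igfbp6 and Igfbp7 among 135 of 18671 genes in the former. In the latter that fit called Igfbp3 and Igfbp7 among 259 of 16292 genes. In hormone-sensing luminal cells 4 of 7 members were apart (44.5% of all genes), all lower at 9 weeks, which were Igfbp3, Igfbp4, Igfbp6 and Igfbp7. Igfbp7 was 18.2 and 49.4 CPM at 8 weeks and 5.13 and 5.58 at 9 weeks (log2 -2.60, SE 0.51, edgeR adjusted p = 0.210). Fibroblast markers in these cells stood at a median of 0.107%, 0.335%, 0.00852% and 0.0105% of their fibroblast level and summed to 46.0, 101, 16.3 and 21.9 CPM, lower at 9 weeks as well. Igfbp6 stood at 0.0977%, 0.512%, 0.00855% and 0.0112% of its fibroblast level and Igfbp4 at 0.236%, 1.25%, 0.102% and 0.165%. Igfbp4 was also present in endothelial cells (mean 1051 CPM) and basal cells (76.5 CPM), which its fibroblast percent leaves out. The part of RNA from other classes in these values was not tested. In fibroblasts 3 of 8 were apart (43.5% of all genes). Fibroblast Igfbp3 was 92.6 and 127 CPM at 8 weeks and 5.01 and 37.3 at 9 weeks (log2 -2.30, SE 0.50, adjusted p = 0.204), and fibroblast Igfbp7 2193 and 2305 against 1582 and 885 CPM (log2 -0.93, SE 0.25, adjusted p = 0.341). Each passed in 4 of 10 alternative fits.

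**Figure D5:**
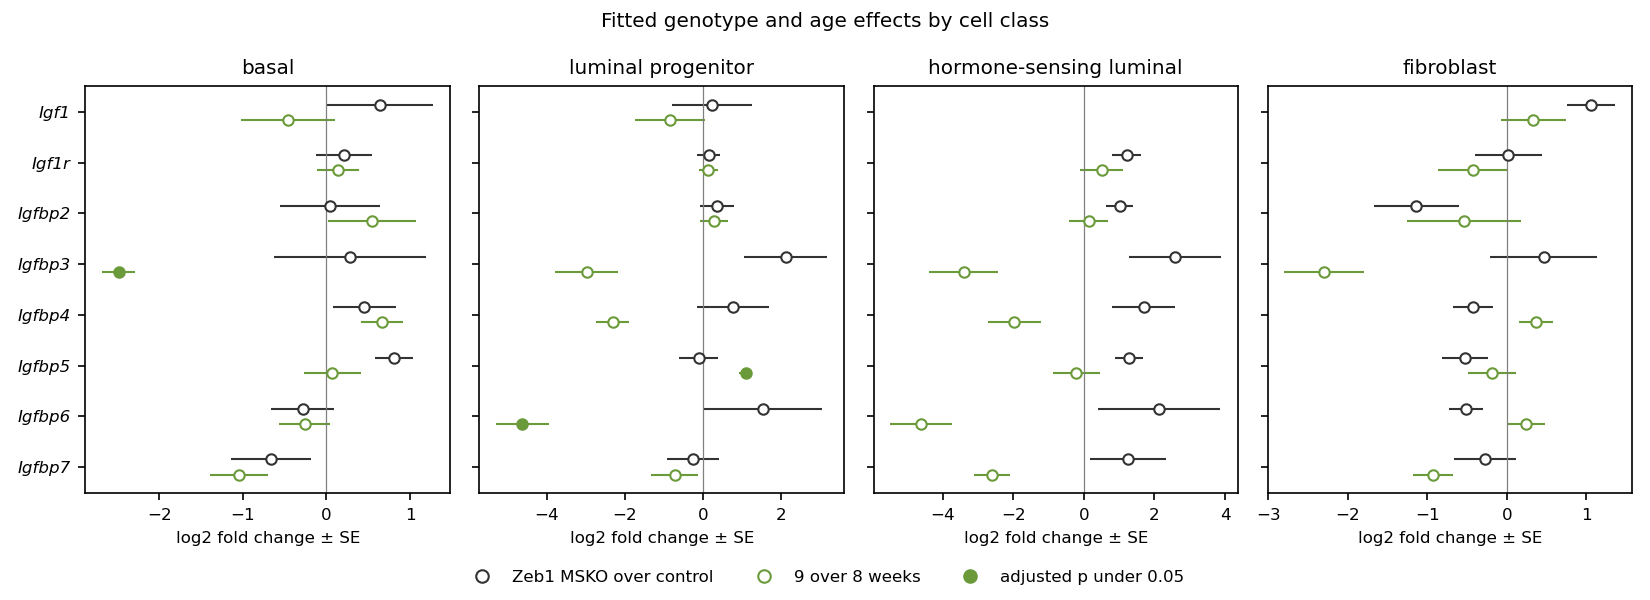
Fitted log2 fold change with its standard error (x axis) of each member (y axis) in 4 cell classes, for Zeb1 MSKO over control (black) and 9 over 8 weeks (green), with filled points for an edgeR adjusted p under 0.05. The filled points are Igfbp3 in basal cells and Igfbp5 and Igfbp6 in luminal progenitors, all for age, and x scales differ between panels.

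The rest of the growth factor system was read from a list of 36 genes of ligands, receptors, adaptors, kinases, proteases and related matrix proteins. None of the genes tested passed edgeR's threshold in any class, for genotype or for age. For genotype, 20 of 30 were higher in Zeb1 MSKO basal cells (median log2 0.09), beside 55.1% of all genes (median 0.02). The counts were 21 of 28 in luminal progenitors (median 0.13, all genes 49.4%), 18 of 28 in hormone-sensing luminal cells (0.09, 52.5%) and 11 of 26 in fibroblasts (-0.09, 51.6%). For age, 10 of 30 were higher at 9 weeks in basal cells (median -0.13, all genes 52.2%), 9 of 28 in luminal progenitors (-0.16, 51.1%), 5 of 28 in hormone-sensing luminal cells (-0.21, 51.3%) and 10 of 26 in fibroblasts (-0.19, 48.5%).

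The most abundant of these genes differed by class. In basal cells they were Ctsd, a lysosomal protease that can cut binding proteins (386 CPM, mean over 4 libraries), Cyr61, a matricellular relative (175), the kinase subunit gene Pik3r1 (87.6), the endocytic receptor gene Lrp1 (61.7), the secreted protease gene Htra1 (53.7) and the kinase gene Akt1 (45.1). Luminal progenitors added the transcription factor gene Foxo1 (39.2 CPM) and the adaptor gene Irs2 (34.8), and hormone-sensing luminal cells Stc2, an inhibitor of Pappa proteases (333). Fibroblasts were led by Cyr61 (850 CPM) and Htra1 (676), ahead of Ctsd (298), Lrp1 (294), Akt2 (62.4) and the adaptor gene Grb10 (60.7).

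Similar patterns were sought by Pearson's r of log2(CPM + 1) over 20 points (5 classes in 4 libraries, which share library and depth). The 10006 candidates had a mean of at least 10 CPM in some class and left out the markers used in the gates. Among them, the genes most like Igf1 were Calml4 (r = 0.986), Thy1 (0.978) and Flrt2 (0.974). Ttc28 (0.941) and Wwtr1 (0.914) were among the 3 nearest to Igf1r. Igfbp2 was nearest to Myl9 (0.919), a smooth muscle myosin light chain gene, Bmp7 (0.918) and Nkd2 (0.909). Igfbp3 was nearest to Slc39a10 (0.932), Lmo1 (0.887) and Cdkn2aip (0.884). The genes most like Igfbp4 were Slc43a3 (0.994), Fscn1 (0.984) and Ltbp4 (0.978), and those most like Igfbp5 were Dclk1 (0.924), Prelp (0.911) and Tomm5 (0.902). Igfbp6 was nearest to the matrix genes Mfap5 (0.989), Col6a2 (0.983) and Srpx (0.981), and Igfbp7 to Plat (0.960), Pmp22 (0.958) and Pros1 (0.958). The endothelial points at 9 weeks rest on 8 cells per library. In the 9-week control endothelial sum, Igf1, Calml4, Thy1 and Flrt2 each had 0 UMIs. Igfbp6, Mfap5, Col6a2 and Srpx each had 0 UMIs in both 9-week endothelial sums. The part of these points in the r values was not tested. The r values are descriptions of pattern over cell classes only.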

How the data were processed

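The authors deposited raw UMI counts of all 4 libraries in 1 matrix of 36884 barcodes; Cell Ranger 2.1.0 and mm10 are named per the submitters' processing notes, with further settings not given in the sources used here. A suffix given in the labels ties each barcode to its library. Cells with at least 500 genes and at most 10% mitochondrial UMIs were kept (36470). Classes were gated on summed marker UMIs per 10000; the limits were set after the lists' distributions were seen, cells passing several gates (1946) were left out in place of a doublet caller, and 584 passed none. Members and lists were chosen with earlier results of these data known.

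Within each class, the UMI counts of a library were added up and tested with edgeR 4.0.16 in R 4.3.3 (TMM, filterByExpr, quasi-likelihood test, Benjamini-Hochberg over all genes tested), where every library held at least 10 cells. Igf1 did not pass the low-count filter in hormone-sensing luminal cells, which left 7 of the 8 members; all 8 passed in the other 3 classes. DESeq2 1.42.0, RLE factors, no filter, an age block, genotype as a term, other gates and each library left out were alternatives. Shares were taken after thinning to 2000 UMIs (every kept cell had at least 2566), with exact permutation tests. Scripts were tested on simulated data. Named were all members, up to 6 list genes per class by mean CPM, and the 3 genes most like each member. One of the genes most like Igf1r is not reported here.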

Additional observations from a re-analysis of the deposited data

Results flagged for a closer look

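Igfbp2 in basal cells differed between genotypes in opposite directions at the 2 ages. The log2 ratio of Zeb1 MSKO over control CPM was -1.53 at 8 weeks (110 against 319 CPM) and 1.15 at 9 weeks (459 against 207 CPM), with 1 library per genotype at each age. The difference between the ages was not tested, because no library is repeated within an age. The value was noted because both ratios passed 1 on the log2 scale at a mean of at least 10 CPM, limits chosen after seeing the data, and Igfbp2 was the only member to do so in opposite directions in a fitted class.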

How the results depend on the processing

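Counts of called genes moved with the processing. For genotype (0 calls in each class), DESeq2 called 2 genes in basal cells, 6 in luminal progenitors and 41 in hormone-sensing luminal cells, and leaving low counts unfiltered gave 40 in basal cells, 72 in luminal progenitors and 68 in fibroblasts. With age as replicate block, 3 were called in basal cells, 2 in hormone-sensing luminal cells and 60 in fibroblasts, with 1 residual degree of freedom. The replicate numbers stand for age, and same-age libraries shifted together across genes (r = 0.360 in basal cells, 0.337 in luminal progenitors, 0.267 in hormone-sensing luminal cells and 0.154 in fibroblasts, 2 pairs). For age (202, 128, 8 and 8 calls in basal, luminal progenitor, hormone-sensing luminal and fibroblast cells), DESeq2 gave 697, 540, 440 and 37, no filter gave 1564, 902, 135 and 259, and genotype as a term gave 315 in basal, 3 in hormone-sensing luminal and 136 in fibroblast cells. Doubled marker limits gave 14 in hormone-sensing luminal cells, and giving cells of several gates to their highest list gave 14 there and 4 in fibroblasts. Leaving out 1 library at a time gave 0 to 11 (basal), 0 to 0 (both luminal classes) and 0 to 130 (fibroblast) calls for genotype, 109 to 982, 14 to 92, 0 to 1 and 1 to 98 for age, and 0 to 19 and 0 to 85 for the genotype difference of luminal progenitors and hormone-sensing luminal cells from basal cells (0 and 1 in full). Where an arm keeps 1 library, it is assumed to vary like the others, and the cause of these shifts was not tested. Of 190 alternative values for 19 member fold changes with an unadjusted p under 0.05, 0 changed direction, 10 lost and 28 gained a call. Other member fold changes were not followed in this way. Basal Igfbp2, in alternatives chosen after seeing the data, was at -1.46 and 1.16 (8 and 9 weeks) with doubled limits and -1.48 and 1.17 with cells of several gates given. Endothelial cells were not fitted, since both 9-week libraries held 8.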

Other observations

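The smallest classes entered no comparison. Cells that passed the Schwann gate had 10168 CPM of Igfbp7 in the 8-week control library (3 cells), 5349 in the 8-week Zeb1 MSKO library (4 cells) and 2618 in the 9-week control library (1 cell). Pericyte-gated cells had 2194 CPM of Igfbp7 in the 8-week control library (14 cells) and 338 in the 8-week Zeb1 MSKO library (12 cells).

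Basal cells with at least 10 UMIs of Igfbp3 per 10000, the limit used for Igfbp2, made up 28.0% (498 cells) of basal cells in the 8-week control library and 37.4% (1859 cells) in the 8-week Zeb1 MSKO library. They were 0.333% (7 cells) and 0.397% (10 cells) in the 9-week control and Zeb1 MSKO libraries. Of the 10 basal markers, Krt17 was higher and Acta2, Cnn1 and Mylk were lower in these cells than in other basal cells in each of the 4 libraries. The other markers varied in direction. At 8 weeks (control, Zeb1 MSKO) the ratios were 1.02 and 1.05 for Krt17 and 0.876 and 0.897 for Acta2. They were 0.921 and 0.943 for Cnn1 and 0.827 and 0.834 for Mylk. The 9-week ratios rest on the 7 and 10 cells, and these differences were not tested.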
